A study of Mus musculus with 6 samples.

Results

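The 10 genes described here belong to insulin and FOXO signalling: the FOXO factor genes Foxo1, Foxo3 and Foxo4, the receptor genes Insr and Igf1r, the adaptor gene Irs2, the PI3K inhibitor gene Pik3ip1, and Ccng2, Sesn1 and Bcl6, which are known targets of FOXO factors. They were chosen by name from the 55487 genes of the count table, with symbols taken from GENCODE M21. All samples were megakaryocyte-erythroid progenitors, the marrow precursors of red cells and platelets, sorted from C57BL/6 mice of wild type genotype at 8 weeks of age. The 3 control libraries came from mice labelled control and the 3 fasted libraries from mice fasted for 6 h. The study asked what fasting does to the making of red cells. The labels do not say whether a library held 1 mouse or a pool, so p-values measure the spread between these libraries only.

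Insulin and IGF1 bind receptor tyrosine kinases, which recruit IRS adaptors and PI3K and so activate the kinase AKT. AKT phosphorylates FOXO transcription factors and holds them outside the nucleus. When insulin falls, FOXO factors enter the nucleus and induce genes of cell cycle arrest, antioxidant defence and survival, and also the genes of the insulin receptor and IRS2. FOXO3 is known for its roles in the quiescence of blood stem cells and in the maturation of red cell precursors. RNA counts measure neither the phosphorylation nor the location of FOXO proteins.

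FOXO factors bind the letters GTAAACA and, in insulin response elements, CAAAACA. Both were searched on both strands in the RefSeq promoter windows of GRCm38.p6, which run from 250 bases before to 50 bases after a gene's start. Entries existed for 8 of the 10 genes (10 windows). The table gave none for Foxo4 and Insr. A match was found in 3 of the 10 windows, belonging to Irs2, Ccng2 and Sesn1, while 9.63% of all 32851 windows held at least 1 of the motifs (3.65% GTAAACA, 6.28% CAAAACA). The 3 matches are printed 5′ to 3′ on the gene's strand with the motif in capitals, to show where a FOXO-type sequence stood next to the genes measured below. Such a match is not evidence of binding.
Irs2: agtcacgtgtTGTTTTGctcttagttc
Ccng2: gtcgcagactCAAAACAaaaacaaggg
Sesn1: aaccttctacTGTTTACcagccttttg
The Irs2 stretch (chr8:11008950-11008976, minus strand) starts its motif 37 bases before the RefSeq start and lies upstream of the gene as drawn in M21. The Ccng2 stretch (chr5:93267547-93267573, plus strand) starts its motif 16 bases before the RefSeq start, and the Sesn1 stretch (chr10:41810586-41810612, plus strand) starts its motif at base 23 after it. Both overlap exons that M21 annotates as untranslated.

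Libraries held between 12797144 and 30246110 counts, and each fasted library was shallower than each control library. Counts also fell on genes that are silent in blood. The 1466 odorant and vomeronasal receptor genes, used here as a measure of background, received 0.540 CPM per kilobase ± 0.212 (SD, n = 3) in control and 1.12 ± 0.108 (SD, n = 3) in fasted libraries, a difference of 1.06 on the log2 scale. CPM here is counts per 1000000 counts of the 10641 genes whose mean count was at least 5 times this background, after TMM scaling. These genes were the ones tested. The 12 erythroid markers summed to between 5103 and 8796 CPM in control and between 7174 and 10896 CPM in fasted libraries, which overlapped. Of these markers 10 had log2 fold changes above 0, and Gata1 (-0.20) and Klf1 (-0.05) were the 2 below. Megakaryocyte markers summed to between 525 and 669.7 CPM in control and between 295 and 489 CPM in fasted libraries, without overlap. Granulocyte and monocyte markers summed to between 3542 and 18165 CPM in control and between 1449 and 4263 CPM in fasted libraries, and Mpo, a granule enzyme gene, reached 10884 CPM in control library 3.

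In edgeR's quasi-likelihood test none of the 7 tested members passed at an adjusted p under 0.05, against 0% of all genes tested (0 of 10641). Unadjusted p was under 0.05 for 2 of the 7 members, Irs2 and Insr, both higher in fasted libraries, against 19.8% of all genes tested (2111 genes), or 11.5% in the higher direction. DESeq2 passed 503 genes and limma-voom 0, and neither passed any of the 7 members. The median log2 fold change was 0.25 over the 7 members and 0.02 over all genes tested, and 5 members had values above 0. These medians are not a like measure. Of the 7, only Pik3ip1 and Sesn1 lay at 10 times background or more, as did 6930 of the 10641 genes tested. Background, which was higher in fasted libraries, weighs more on genes nearer to it, and no median of tested genes at a like level is given. Foxo1, Foxo4 and Bcl6 lay below 5 times the background, at 2.35, 1.61 and 2.47 times on average. Their tests come from a fit of all 36508 genes that passed the expression filter, with TMM factors from all of them. That fit places the median of the 10641 better measured genes at -0.50 and that of the 25867 genes nearer background at 0.53, so its values are read against those medians. It passed 1 of the 10 members, Bcl6, against 4.97% of all genes (1.15% higher and 3.82% lower).

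**Figure D1:**
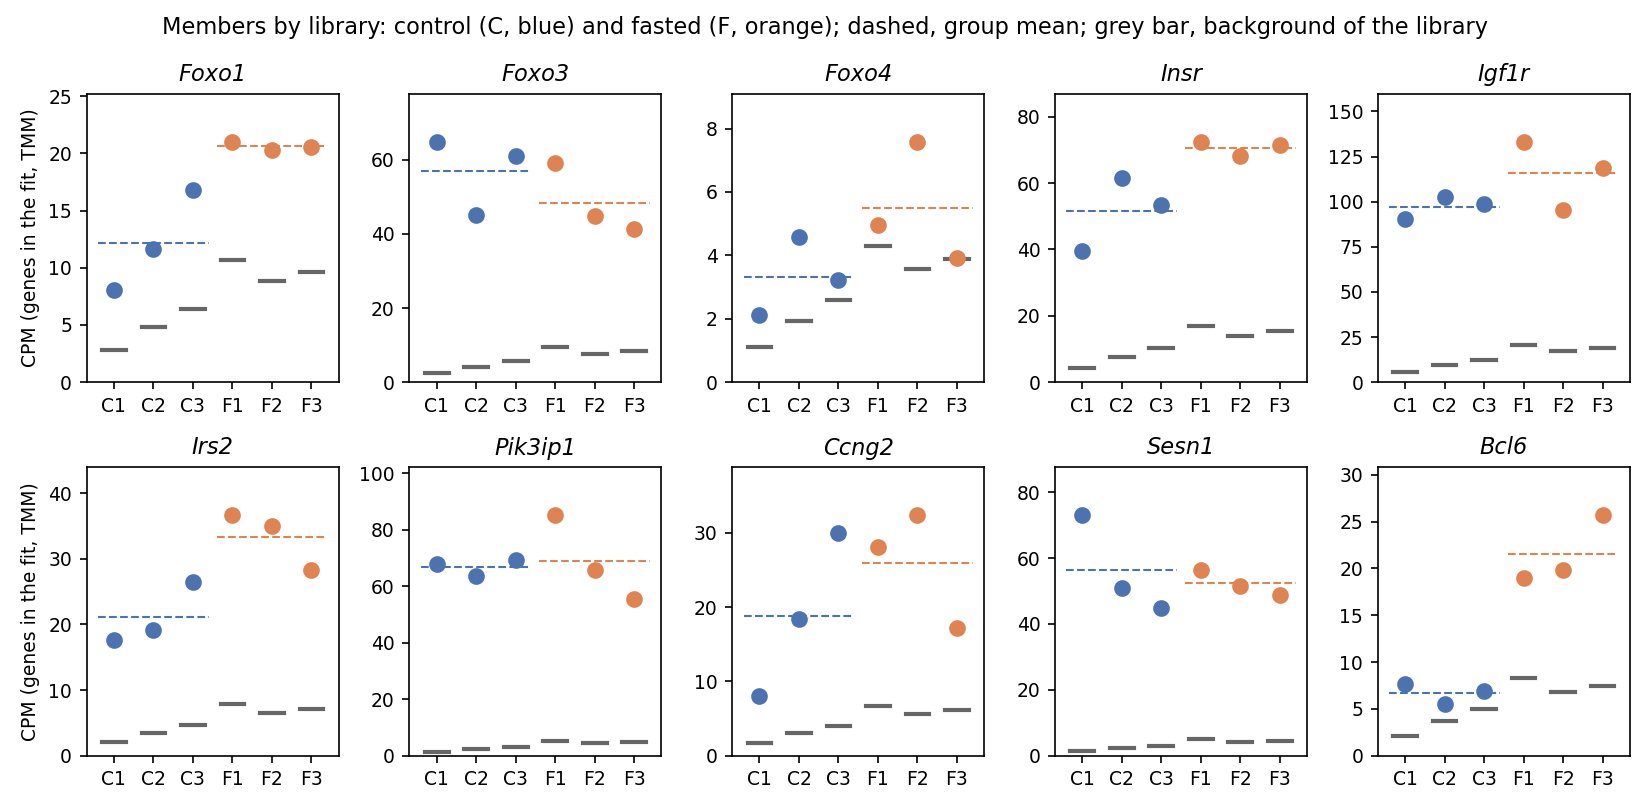
CPM of the 10 genes in the 3 control (C, blue) and 3 fasted (F, orange) libraries, with the group mean as a dashed line and the level that the library's background gives a gene of that length as a grey bar. Foxo1, Insr, Irs2 and Bcl6 were higher in each fasted library than in any control library. The same held for 40.7% of all filtered genes on this scale (44.6% counting either direction). The Foxo4 point of fasted library 3 lies on its background bar.

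Per length, Foxo3 was the most abundant FOXO gene in all 6 libraries, and its level did not differ between the groups beyond their spread. Foxo3 (ENSMUSG00000048756.11, GRCm38 chromosome 10, 42181841 to 42276755, minus strand) had 64.9, 45.1 and 61.1 CPM in control libraries 1, 2 and 3 against 59.2, 44.9 and 41.2 CPM in fasted libraries 1, 2 and 3. The fasted libraries 2 and 3 were the lowest of the 6, but the groups overlapped. The means were 57.1 CPM ± 10.5 (SD, n = 3) and 48.4 CPM ± 9.49 (SD, n = 3), which gave a log2 fold change of -0.24 (SE 0.20, edgeR adjusted p 0.524). The fit of all genes gave -0.76 (SE 0.25, edgeR adjusted p 0.0647), which is below the median of -0.50 of the better measured genes by a similar margin.

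Foxo1, the FOXO gene best known from liver and lymphocytes, stood close to background. Foxo1 (ENSMUSG00000044167.6, chromosome 3, 52268336 to 52353221, plus strand) had 8.02, 11.6 and 16.8 CPM in control against 21.03, 20.3 and 20.6 CPM in fasted libraries. Every fasted value lay above every control value, as was the case for 40.7% of all filtered genes on this scale (44.6% counting either direction). Background made up 34.6% to 41.4% of its control counts and 43.6% to 50.9% of its fasted counts. After subtracting it, the values were 5.24, 6.83 and 10.4 CPM in control against 10.3, 11.4 and 10.9 CPM in fasted libraries, and the groups overlapped. As a multiple of each library's background, Foxo1 was instead lower in each fasted library, at 2.89, 2.42 and 2.62 in control against 1.96, 2.29 and 2.13 in fasted libraries. The background itself was higher in fasted libraries, and the share of all genes that were lower on this measure is not given here. The fit of all genes gave a log2 fold change of 0.29 (SE 0.27, edgeR adjusted p 0.467), below the median of 0.53 of the genes nearer background, and 0.76 (SE 0.29, edgeR adjusted p 0.0721) with the scaling of the better measured genes. The antisense gene model Gm20402 shares 7.78% of its exon bases, and the sources do not state the strand setting of the counting.

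Foxo4, the third FOXO gene, was hardly above background. Foxo4 (ENSMUSG00000042903.8, chromosome X, 101254528 to 101260873, plus strand) had 59, 108 and 64 counts in control against 57, 119 and 52 counts in fasted libraries. The multiple of background ran from 1.25 to 2.36 in control and from 1.01 to 2.13 in fasted libraries. The fit of all genes gave a log2 fold change of 0.27 (SE 0.38, edgeR adjusted p 0.642), and 0.74 (SE 0.42, edgeR adjusted p 0.191) with the scaling of the better measured genes. No difference was detectable at this depth.

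The share of each paralog in the FOXO counts per kilobase does not depend on the scaling between libraries. Foxo3 made up 84.9%, 69.2% and 73.8% in control libraries 1, 2 and 3 against 67.0%, 56.8% and 60.9% in fasted libraries 1, 2 and 3. The groups did not overlap, and the means of 75.9% ± 8.07 and 61.5% ± 5.16 (SD, n = 3 each) differed by -14.4 percentage points (two-sided exact permutation test, p = 0.1, the smallest value that 3 against 3 libraries allow). After background subtraction the Foxo3 shares were 90.3%, 77.8% and 84.1% in control against 82.7%, 66.5% and 77.4% in fasted libraries. These overlapped, with a difference of -8.54 points (exact permutation test, p = 0.2). The Foxo1 share was 10.6% ± 3.63 in control and 18.4% ± 3.79 in fasted libraries after subtraction (SD, n = 3 each), and its groups did not overlap (exact permutation test, p = 0.1). The paralog shares form 1 family of 6 comparisons, with too few libraries for any adjusted p to reach 0.05. The ratio of Foxo3 to Foxo1 after subtraction was 13.6, 6.86 and 6.11 in control against 5.53, 3.72 and 3.44 in fasted libraries, with control library 1 far above the rest.

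**Figure D2:**
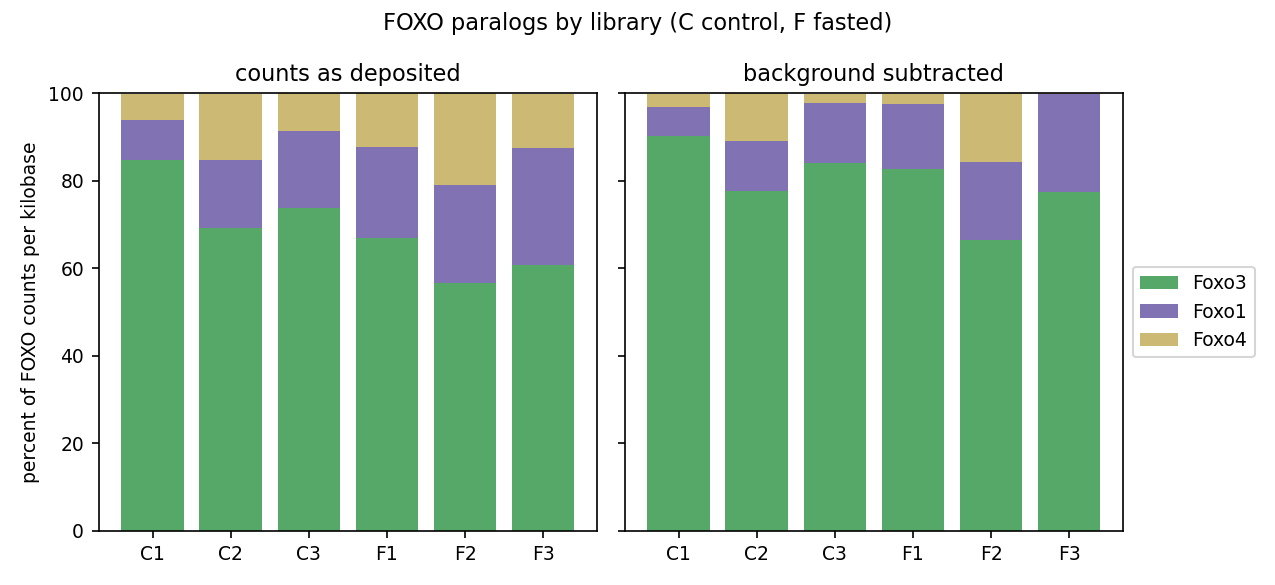
Share of Foxo3, Foxo1 and Foxo4 in the FOXO counts per kilobase of each library (C control, F fasted), in percent, from the counts as deposited and after background subtraction. Foxo3 held more than any other paralog in each library, between 56.8% and 84.9% before and between 66.5% and 90.3% after subtraction.

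The insulin receptor gene was higher in each fasted library than in any control library. Insr (ENSMUSG00000005534.10, chromosome 8, 3122061 to 3279617, minus strand) had 39.5, 61.5 and 53.5 CPM in control against 72.5, 68.1 and 71.5 CPM in fasted libraries. The fasted values lay close together, and control library 1 was the lowest of the 6. The means were 51.5 CPM ± 11.1 and 70.7 CPM ± 2.30 (SD, n = 3 each), which gave a log2 fold change of 0.46 (SE 0.18, edgeR unadjusted p 0.0293, adjusted p 0.212) and 0.30 without control library 1. After background subtraction the groups still did not overlap, at 35.1 to 53.8 CPM in control and 54.1 to 56.2 CPM in fasted libraries, and control library 2 differed little from the lowest fasted library. The fit of all genes gave a log2 fold change of -0.04, so its sign against 0 is set by the scaling, while it lay above the median of the better measured genes in both fits. As a multiple of each library's background, which was higher in fasted libraries, Insr was instead lower in each fasted library. It stood at 8.98, 8.04 and 5.24 in control against 4.26, 4.85 and 4.66 in fasted libraries.

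Igf1r, the gene of the IGF1 receptor, was measured at a higher level per length than Insr in all 6 libraries. Igf1r (ENSMUSG00000005533.10, chromosome 7, 67952827 to 68233668, plus strand) had 90.2, 102.8 and 98.6 CPM in control against 133, 95.1 and 119 CPM in fasted libraries. Fasted library 2 lay within the control range, and the groups overlapped. The log2 fold change came to 0.25 (SE 0.15, edgeR adjusted p 0.375), 0.14 without fasted library 1 and -0.27 in the fit of all genes. The ratio of Insr to Igf1r per length was 0.535, 0.731 and 0.662 in control against 0.664, 0.874 and 0.736 in fasted libraries, and these overlapped.

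Irs2, the gene of an adaptor that couples both receptors to PI3K, had the smallest p of the tested members. Irs2 (ENSMUSG00000038894.7, chromosome 8, 10984681 to 11008458, minus strand) had 17.6, 19.2 and 26.5 CPM in control against 36.7, 35.1 and 28.3 CPM in fasted libraries. Each fasted library lay above each control library, with fasted library 3 only just above control library 3. The means were 21.1 CPM ± 4.74 and 33.3 CPM ± 4.47 (SD, n = 3 each), which gave a log2 fold change of 0.66 (SE 0.22, edgeR unadjusted p 0.0135, adjusted p 0.170). Background made up 11.5% to 18.3% of its control counts and 18.4% to 25.0% of its fasted counts. With it subtracted, control library 3 (21.8 CPM) and fasted library 3 (21.2 CPM) crossed, and the log2 fold change came to 0.65 (SE 0.24, edgeR adjusted p 0.255). The value was 0.17 in the fit of all genes.

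Of the 7 tested members, 2 (Insr and Irs2) had groups that did not overlap in CPM, both higher in fasted libraries, against 14.4% of all genes tested (27.3% counting either direction).

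Pik3ip1, which encodes a membrane protein that binds and inhibits PI3K, had the highest level per length of the 10 genes. Of the 7 tested, its log2 fold change was the smallest in absolute size. Pik3ip1 (ENSMUSG00000034614.14, chromosome 11, 3330401 to 3342971, plus strand) had 67.8, 63.6 and 69.3 CPM in control against 85.2, 65.9 and 55.5 CPM in fasted libraries. The fasted libraries spanned the whole control range. The means of 66.9 CPM ± 2.97 and 68.9 CPM ± 15.1 (SD, n = 3 each) gave a log2 fold change of 0.04 (SE 0.17, edgeR adjusted p 0.912).

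Among the FOXO target genes, Sesn1 and Ccng2 showed no difference beyond the spread. Sesn1, the gene of a stress protein that restrains mTORC1 (ENSMUSG00000038332.13, chromosome 10, 41809935 to 41908424, plus strand), had 73.1, 50.8 and 44.9 CPM in control against 56.5, 51.6 and 48.9 CPM in fasted libraries. Control library 1 was the highest of the 6. The log2 fold change came to -0.11 (SE 0.20, edgeR adjusted p 0.785), and without control library 1 it was 0.13. Ccng2, the gene of cyclin G2, a cyclin linked to cell cycle arrest (ENSMUSG00000029385.14, chromosome 5, 93267257 to 93276231, plus strand), had 8.06, 18.3 and 30.0 CPM in control against 28.1, 32.4 and 17.3 CPM in fasted libraries. The control values alone ran from the lowest to nearly the highest of the 6. The log2 fold change came to 0.47 (SE 0.45, edgeR adjusted p 0.586), 0.10 without control library 1 and 0.96 without control library 3.

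Bcl6, the gene of a transcriptional repressor of germinal centre B cells, was the member with the largest log2 fold change. Bcl6 (ENSMUSG00000022508.5, chromosome 16, 23965052 to 23988852, minus strand) had 216, 130 and 137 counts in control against 219, 311 and 341 counts in fasted libraries, although the fasted libraries were shallower. These are 7.70, 5.51 and 6.92 CPM in control against 19.0, 19.8 and 25.7 CPM in fasted libraries. The lowest fasted value exceeded the highest control value by more than the range of the control group. The fit of all genes gave a log2 fold change of 1.14 (SE 0.28, edgeR adjusted p 0.0367), against a median of 0.49 over the 5392 genes at 2 to 3 times background. Of those genes, 1.34% passed as higher and 7.66% had a log2 fold change at or above that of Bcl6. With the scaling of the better measured genes the log2 fold change came to 1.68 (SE 0.29, edgeR adjusted p 0.0291), where 13.7% of all genes passed as higher (14.4% in either direction).

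Background made up 27.9%, 67.7% and 71.8% of the Bcl6 counts in control libraries 1, 2 and 3 against 43.5%, 34.5% and 29.1% in fasted libraries 1, 2 and 3. After subtraction Bcl6 stood at 5.55, 1.78 and 1.95 CPM in control against 10.7, 13.0 and 18.2 CPM in fasted libraries, and the groups did not overlap. The log2 fold change was then 1.89 (SE 0.48), but the edgeR adjusted p was 0.242. The call was also lost when control library 2, fasted library 1 or fasted library 3 was left out (log2 fold change 1.00, 1.23 and 1.06, edgeR adjusted p 0.110, 0.0899 and 0.197). As a multiple of each library's background, Bcl6 stood at 3.59, 1.48 and 1.39 in control against 2.30, 2.90 and 3.44 in fasted libraries, where control library 1 was the highest of all.

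Markers of lymphocytes, in which BCL6 and FOXO1 act, were followed beside these values. The 10 B lymphocyte markers summed to between 86.4 and 164 CPM in control and between 135 and 316 CPM in fasted libraries. Of the 6 that were tested, 5 had log2 fold changes above 0. The 10 T and NK lymphocyte markers summed to between 40.1 and 45.2 CPM in control and between 68.7 and 82.7 CPM in fasted libraries, without overlap, though 4 of them lay below 2 times the background and 1 entered the test. After subtraction those sums were 26.1 to 32.9 and 42.6 to 53.8 CPM. No marker of either list was at 0 in any library, but most receptor genes used as background were not either. Between 94.5% and 98.1% of those receptor genes had a count in each library. The part of the lymphocyte markers in the Bcl6 and Foxo1 values was not tested. Nor was that of the granulocyte and monocyte markers, all 11 of which had log2 fold changes below 0. In bulk RNA, more cells of a type and more RNA per cell cannot be told apart.

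**Figure D3:**
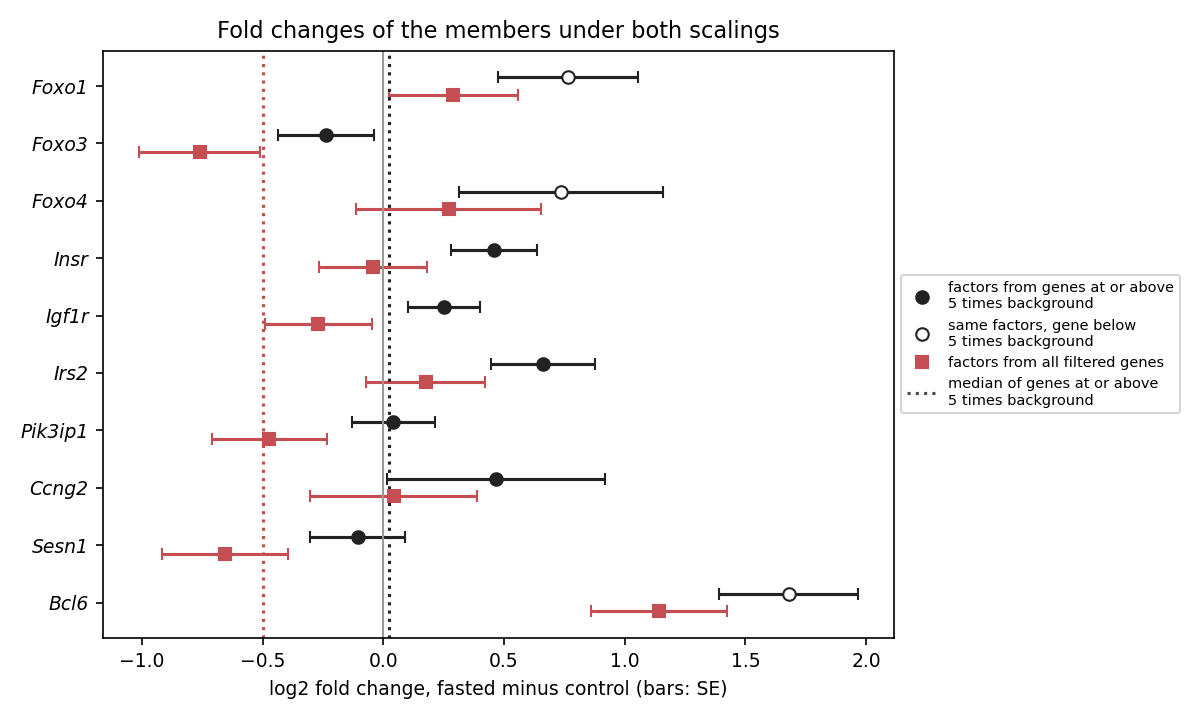
Log2 fold change (fasted minus control) of the 10 genes with its SE, in black with factors from the genes at or above 5 times background (open circles for the 3 genes below it) and in red with factors from all filtered genes. The dotted lines mark the medians of the better measured genes, 0.02 and -0.50. Read against the line of its own colour, Foxo3 and Sesn1 lie left and the other 5 tested members right in both fits.

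Per kilobase and over all 6 libraries, the order of mean levels was Pik3ip1 (15.9 CPM per kilobase), Sesn1 (13.6), Foxo3 (6.97), Igf1r (6.34), Insr (4.44), Irs2 (4.30), Ccng2 (4.10), Bcl6 (2.11), Foxo1 (1.89) and Foxo4 (1.26). Sesn1 exceeded Foxo3, Igf1r exceeded Insr, and Foxo1 exceeded Foxo4 in 6 of 6 libraries. Pik3ip1 exceeded Sesn1, and Ccng2 exceeded Bcl6, in 5 of 6. The other neighbours in the order changed places between libraries, with Foxo3 above Igf1r, Insr above Irs2 and Irs2 above Ccng2 in 3 of 6 each.

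The genes whose centred log2 CPM over the 6 libraries came closest to a member were sought among 8044 named protein-coding genes tested, by the root mean square difference. For Foxo3 they were Pctp and Isoc2b (0.050 and 0.056), for Insr Efcab7 and Yy1 (0.068 and 0.075), and for Igf1r Abl1 and Nadsyn1 (0.043 and 0.044). For Irs2 they were Plekho1 and Ccl5 (0.077 and 0.080), and for Pik3ip1 Arid1a and Thbd (0.053 and 0.060). Ccng2 was nearest to Aff4 and Hist1h2bc (0.086 and 0.094), and Sesn1 to Zfp688 and Por (0.042 and 0.044). With 6 libraries and this many candidates, near matches are numerous, and the values are a description only.

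The wider insulin and PI3K-AKT pathway showed no called gene in the main test. Of its 29 listed genes 20 were tested, 0 passed in edgeR, and 1 had an unadjusted p under 0.05 in each direction (Igf2r higher and Ywhab lower, 10% of the 20, against 19.8% of all genes tested). Their median log2 fold change was 0.07, against 0.02 over all genes tested, with 12 above 0 and 8 below. Igf2r, a receptor that clears IGF2, had the smallest adjusted p of the list and was named after its values were seen. It had 28.8, 31.8 and 17.1 CPM in control against 40.1, 49.6 and 55.2 CPM in fasted libraries, without overlap, a log2 fold change of 0.90 (SE 0.25, edgeR adjusted p 0.148). Igf2r lay at 5.08 times the background, just above the limit for the test, and no value after background subtraction is given for it. The adaptor genes Shc1 and Grb2 had log2 fold changes of 0.13 and 0.01. Inpp5d, which encodes the blood cell phosphatase SHIP1, had 0.19, and Ptpn1, the gene of a phosphatase that acts on the insulin receptor, had -0.02. Akt2 had -0.004 and Trib2, an AKT-binding pseudokinase gene with control values of 88.9 CPM ± 81.2 (SD, n = 3), had -0.46. The fit of all genes, in which the better measured genes have a median of -0.50 and 3.82% of all genes passed as lower, passed 3 of the 29, all lower: Akt1 (-0.82, edgeR adjusted p 0.0475) and the 14-3-3 genes Ywhaz (-0.88, 0.0438) and Ywhab (-0.86, 0.0456), whose proteins hold phosphorylated FOXO in the cytoplasm. The share of 3.82% includes the 25867 genes nearer background, with a median of 0.53 in this fit. It is therefore not a like measure for Akt1, Ywhaz and Ywhab, which are among the better measured genes. The main test gave Akt1 -0.29, Ywhaz -0.39 and Ywhab -0.32, and edgeR adjusted p ran from 0.246 to 0.397. Irs1 was among the 9 listed genes below 5 times the background.

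Of 32 other FOXO target genes 26 were tested, and their median log2 fold change was 0.27, with 20 above 0 and 6 below, and 0 passed in edgeR. Unadjusted p was under 0.05 for 3 higher genes and 1 lower gene (15.4% of 26, against 19.8% of all genes tested). The higher ones were Bcl2l11, Tsc22d3 and Sesn2, and Bcl2l11 and Sesn2 were named after their values were seen. Bcl2l11, which encodes the death protein BIM, had 18.3, 27.4 and 31.7 CPM in control against 53.8, 71.8 and 44.2 CPM in fasted libraries, a log2 fold change of 1.14 (SE 0.25, edgeR adjusted p 0.131). Its groups did not overlap, and it lay at 6.27 times the background. Tsc22d3, a gene shared with the glucocorticoid response, averaged 189 CPM ± 58.0 in control and 298 CPM ± 46.4 in fasted libraries (SD, n = 3 each), which gave a log2 fold change of 0.66 (SE 0.22, edgeR adjusted p 0.173). Sesn2, a relative of Sesn1, had 24.7, 26.0 and 27.4 CPM in control against 30.6, 39.4 and 40.7 CPM in fasted libraries (log2 fold change 0.51, edgeR adjusted p 0.186).

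Bnip3, a mitophagy receptor gene, had the lowest log2 fold change of the tested targets. It stood at 27.6, 20.3 and 20.1 CPM in control against 12.4, 16.4 and 13.7 CPM in fasted libraries, a log2 fold change of -0.68 (SE 0.22, edgeR adjusted p 0.170). In the fit of all genes 2 of the 32 targets passed as lower, against 3.82% of all genes and beside the median of -0.50 of the better measured genes. Bnip3 was 1 of them (-1.21, edgeR adjusted p 0.0333). It is among the better measured genes, so the share over all genes is not a like measure for it. The other was the death ligand gene Tnfsf10 (-0.92, edgeR adjusted p 0.0488), which lay below 5 times the background. None of the remaining abundant targets passed in edgeR. Cat, the catalase gene, had a log2 fold change of 0.19, the autophagy genes Gabarapl1 and Map1lc3b had 0.12 and 0.05, and the peroxiredoxin gene Prdx3 had 0.03. The cell cycle inhibitor genes Cdkn1a and Cdkn2d had 0.37 and 0.10, and Klf6 had 0.46, with SEs of 0.87, 0.37 and 0.74, and Cdkn1a and Klf6 ran from 44.4 to 288 CPM and from 142 to 1172 CPM within the control group alone. Il7r, a FOXO1 target in lymphocytes, was among the 6 listed targets below 5 times the background.

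Of 15 genes of FOXO partners and regulators, 11 were tested and 0 passed in edgeR, with a median log2 fold change of 0.13. Unadjusted p was under 0.05 for 1 higher and 2 lower genes (27.3% of the 11, against 19.8% of all genes tested). The higher one was the acetyltransferase gene Ep300, named after its values were seen (log2 fold change 0.39, SE 0.17, edgeR adjusted p 0.238), and the lower ones were Prmt1 and Stk4. Ep300 lay at 5.01 times the background, just above the limit for the test, and no value after background subtraction is given for it. Prmt1, the gene of a methyltransferase that modifies FOXO1, had 221, 204 and 222 CPM in control against 148, 187 and 141 CPM in fasted libraries, without overlap (log2 fold change -0.44, SE 0.14, edgeR adjusted p 0.157). Stk4, which encodes the FOXO kinase MST1, had -0.37 (SE 0.14, edgeR adjusted p 0.199). Both passed as lower in the fit of all genes (-0.95 and -0.90, edgeR adjusted p 0.0369 and 0.0409), 2 of the 13 that it held, against 3.82% of all genes. That share includes the 25867 genes nearer background, with a median of 0.53 in this fit, against -0.50 for the better measured genes. It is therefore not a like measure for Prmt1 and Stk4, which are among the better measured genes. Sirt2 and Mdm2, a deacetylase and a ubiquitin ligase gene, had 0.05 and 0.003.

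**Figure D4:**
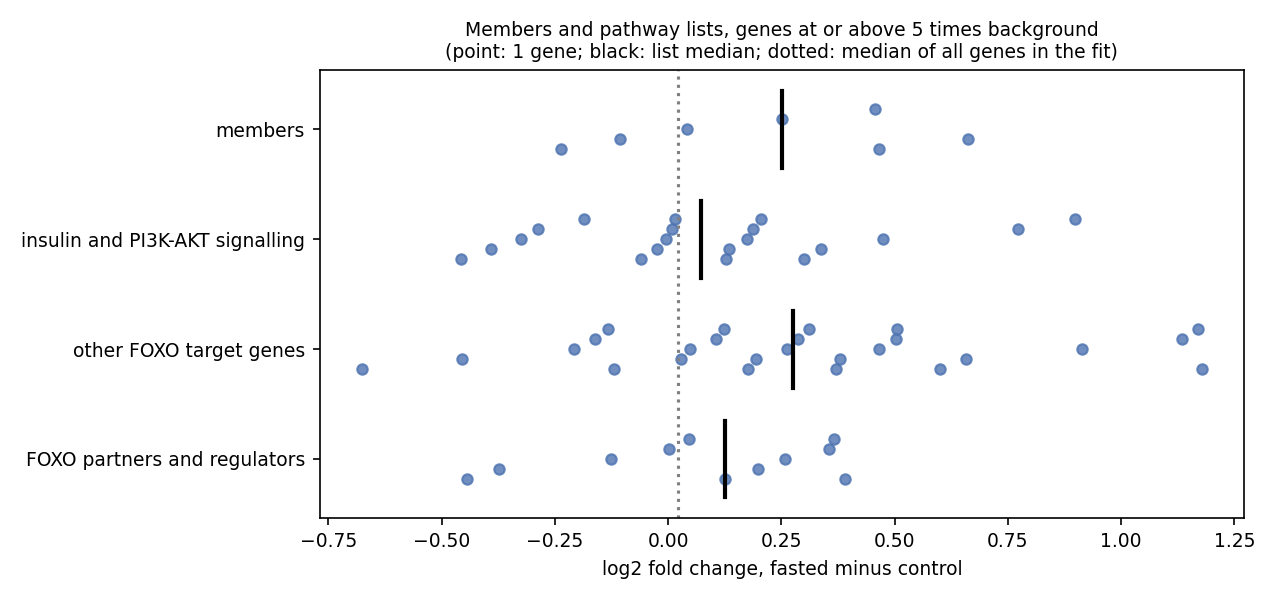
Log2 fold changes (fasted minus control) of the genes at or above 5 times background among the members and the 3 pathway lists, with 1 point per gene, the list median in black and the median of all genes tested (0.02) dotted. The list medians are 0.25, 0.07, 0.27 and 0.13, and the FOXO target list spans the widest range.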

How the data were processed

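The authors deposited raw counts per gene with the exonic length of each gene. The submitters' processing notes name HISAT2 2.2.1, featureCounts 2.0.1 and GRCm38. The annotation release, strand setting and read filters are not given in the sources used here. All 54435 gene identifiers that matched GENCODE M21 with their version had the same exonic length there. Columns were matched to libraries through the sample descriptions.

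Background was the summed count of 1466 odorant and vomeronasal receptor genes per kilobase in each library. Genes that passed filterByExpr (36508) and had a mean count of at least 5 times background (10641) were scaled by TMM and tested with edgeR 4.0.16 (robust glmQLFit, R 4.3.3), with group as the only term and Benjamini-Hochberg adjustment over all of them. The SE is the log2 fold change's size over the square root of F. The fit of all 36508 genes, DESeq2 1.42.0, limma-voom 3.58.1, other factors and filters, background subtraction, the replicate block and leaving out each library were alternatives. The script was tested on simulated data. The members, gene lists and filter were chosen with earlier results of these data known. Genes named were the members, the 8 most abundant tested genes per length of the first and second list and 4 of the last, list genes called in either fit, and the 2 nearest patterns per tested member, with Igf2r, Bcl2l11, Sesn2, Ep300, Irs1 and Il7r named in addition.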

Additional observations from a re-analysis of the deposited data

How the results depend on the processing

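Against 0, Foxo3 was lower, and Irs2, Ccng2, Foxo1 and Bcl6 higher, under every alternative run for them. The log2 fold changes ran from -0.76 to -0.13 for Foxo3, 0.17 to 0.84 for Irs2 and 0.04 to 0.96 for Ccng2. They ran from 0.11 to 0.76 for Foxo1 and from 0.94 to 1.89 for Bcl6. The lowest Ccng2 value had an SE of 0.35. In the fit of all genes Foxo1 had 0.29, below the median of 0.53 of the genes nearer background. As a multiple of each library's background, Foxo3, Irs2, Foxo1, Insr, Igf1r, Pik3ip1 and Sesn1 were lower in each fasted library. Foxo4, Ccng2 and Bcl6 overlapped on this measure. The background itself was higher in fasted libraries by 1.06 on the log2 scale, so a gene with unchanged CPM falls on it. The share of all genes that were lower on this measure is not given here. The number of genes called was 0 in the main test and 1813 with all filtered genes and their own factors, 503 with DESeq2, 1624 with genes from 2 times background, 5916 with no filter and 5244 with all filtered genes and the main factors, the last chosen after seeing the data. Leaving out 1 library gave 0 to 3 genes called. The members called were 1 (Bcl6) in each of these fits that held Bcl6, and 0 of the 7 tested members with DESeq2, in the main test and with each library left out. The median of the members moved from 0.25 to -0.27 with all filtered genes and their own factors, to -0.10 with genes from 2 times background and to 0.049 with genes from 10 times background, where only Pik3ip1 and Sesn1 remained in the test, and ran from 0.13 to 0.26 when 1 library was left out. With all filtered genes and their own factors, Insr (-0.043), Igf1r (-0.27) and Pik3ip1 (-0.47) changed sign, and with genes from 2 times background Igf1r (-0.10) and Pik3ip1 (-0.30) did; factors move all genes alike. Pik3ip1 changed sign without control library 2 (-0.03) and without fasted library 1 (-0.14), Sesn1 without control library 1 (0.13), and Foxo4 without fasted library 2 (-0.19, the other libraries left out giving up to 0.58) and with background subtracted (-0.039); the cause was not tested. The Foxo3 share differed by -17.8 to -9.92 percentage points when 1 library was left out. The shared replicate numbers do not pair the samples in the labels, and the deviations of same-numbered libraries correlated at -0.17, 0.14 and -0.33 over genes; with the replicate block 0 genes and 0 members were called, and Bcl6 had 1.17 (edgeR adjusted p 0.0656). Low counts over background limit Foxo1, Foxo4 and Bcl6 most, for Bcl6 in control libraries 2 and 3.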
